A study of Mus musculus with 6 samples.

Results

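The 50 genes described here are interferon-stimulated effectors, the genes whose products act against viruses and intracellular microbes. They were taken by symbol from a list ordered by subfamily, and all 50 were found among the 55291 gene symbols of the deposited tables. They comprise 8 genes of the OAS family, 4 IFIT genes, 4 genes of ISG15 conjugation, 2 MX genes, the 2 genes of the viperin locus, 4 genes of the PARP and DTX3L group, 3 TRIM genes, 4 GBP and 3 IRG GTPases, 3 membrane restriction factors, 3 genes acting on double-stranded or viral RNA, 3 schlafen and SAMD9L genes and 7 others. RNA was measured in RAW264.7, a mouse macrophage-like line derived from ascites. The libraries shUSP8_1 to shUSP8_3, were labelled as a knock-down of USP8, a deubiquitinating enzyme of endosomes, while shCtrl_1 to shCtrl_3 carried the control hairpin and the genotype label WT. All 6 had received 50 ng/mL RANKL, the cytokine that drives osteoclast formation, for 4 days. The labels name no hairpin sequence or clone and do not call the replicates separate cultures, so p-values rest on spread that could be technical only.

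Type I interferons bind a paired receptor on the cell surface, and the kinases attached to it phosphorylate STAT proteins. With IRF9 these form a complex that enters the nucleus and binds the interferon-stimulated response element (ISRE) in the promoters of the effector genes. The effectors then act at different steps of an infection. OAS enzymes and PKR sense double-stranded RNA, IFIT proteins bind foreign RNA, and IFITM proteins hinder virus entry. Viperin disturbs RNA synthesis, and GBP and some IRG GTPases attack the vacuoles in which microbes live. Macrophages are a tissue source and a target of interferon, and interferons are known to restrain osteoclast formation.

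Each shUSP8 library held 19973522 to 20142107 expected fragment counts and each shCtrl library 20121644 to 20213939. Usp8 had 32.0, 34.8 and 35.1 CPM (counts scaled to a common library size) in shUSP8 libraries, against 141, 129 and 137 CPM in shCtrl libraries, which is -2.00 on the log2 scale (SE 0.06, adjusted p = 1.47e-10 in edgeR). Of 10 macrophage markers, 6 were called higher and 2 lower in shUSP8 libraries, and of 10 osteoclast markers 5 were called lower. Over all tested genes 17.8% were called higher and 14.9% lower. Markers of other cell types were sparse, and few had enough counts to be tested. Of 2 tested plasmacytoid dendritic cell markers 1 was called higher (Cox6a2, 4.0-fold). The 1 tested lymphocyte marker (Lck, 1.83-fold) and the 2 tested neutrophil markers (Cebpe, 2.06-fold, and S100a8, 2.04-fold) were called higher. Of 3 tested stromal markers 0 were called. Of 8 plasmacytoid dendritic cell markers Siglech, Klk1 and Cd209d had no count, and the list summed to 911 to 930 counts per shUSP8 library against 798 to 839 per shCtrl library, most of them from Tcf4. Of 10 lymphocyte markers 7 had no count, Cd3e among them, with sums of 56 to 60 in shUSP8 libraries against 26 to 31 in shCtrl libraries. Of 8 neutrophil markers 5 had no count, Ly6g among them, with sums of 160 to 198 against 72 to 89, mostly Cebpe. The 9 stromal markers summed to 47 to 85 counts per shUSP8 library and 41 to 221 per shCtrl library, and Lum had no count. The part of these differences in the results below was not tested.

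Promoter sequences are shown because the ISRE is the element through which interferon reaches these genes. Of the 50 genes, 42 matched the RefSeq promoter table (assembly GRCm38.p6), which gives 250 bases before and 50 bases after each annotated start. Oas1b, Oas2, Usp18, Mx1, Mx2, Parp9, Parp14 and Rtp4 did not match. The ISRE core was searched on either strand as GAAA, any 2 bases, and GAAA again. It stood in a window of 23 of the 42 genes (54.8%), against 1079 of 27025 genes in the whole table (3.99%). The GAS motif, the gamma-activated sequence, was searched as TTCNNNGAA, which reads the same on both strands, and stood in 12 of the 42 (28.6%), against 9.55% of all genes. A match describes letters in a window and shows no binding, and 8 genes held both motifs.

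The sites below were chosen to show the core in several subfamilies and in near copies, each 30 bases long, read 5′ to 3′ on the named strand, with the core or a run of overlapping cores in capitals. Isg15 carried 3 overlapping cores, and Bst2, Gbp3, Irgm1, Oas1a, Oas1c, Oas1g and Trim21 carried 2.
Isg15, chr4:156200871-156200900, minus strand: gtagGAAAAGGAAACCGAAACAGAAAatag
Oas1a, chr5:120907523-120907552, minus strand: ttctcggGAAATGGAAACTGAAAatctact
Oas1g, chr5:120887609-120887638, minus strand: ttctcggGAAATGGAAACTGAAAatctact
Oas1c, chr5:120812606-120812635, plus strand: ttcccggGAAATGGAAACTGAAAgtcccat
Oas3, chr5:120777715-120777744, minus strand: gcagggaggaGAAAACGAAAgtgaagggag
Ifit1, chr19:34640794-34640823, minus strand: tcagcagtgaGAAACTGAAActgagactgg
Ifit3, chr19:34583397-34583426, minus strand: gaggaaagtaGAAACTGAAAcagacttaaa
Ifit3b, chr19:34607793-34607822, minus strand: gaggaaagtaGAAACTGAAAcagacttaaa
Rsad2, chr12:26456553-26456582, plus strand: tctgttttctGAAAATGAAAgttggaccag
Gbp3, chr3:142559992-142560021, minus strand: gatctggGAAATAGAAACTGAAActgtgtc
Irgm1, chr11:48871428-48871457, minus strand: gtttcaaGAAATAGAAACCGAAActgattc
Igtp, chr11:58199512-58199541, plus strand: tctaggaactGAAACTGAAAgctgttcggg
Irgm2, chr11:58214903-58214932, plus strand: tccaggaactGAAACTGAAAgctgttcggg
Bst2, chr8:71537580-71537609, minus strand: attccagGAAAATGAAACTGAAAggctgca
Trim21, chr7:102565447-102565476, minus strand: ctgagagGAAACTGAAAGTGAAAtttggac
Ifitm3, chr7:141010723-141010752, minus strand: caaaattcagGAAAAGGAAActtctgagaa
Ifitm2, chr7:140955988-140956017, minus strand: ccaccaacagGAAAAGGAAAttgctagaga

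Close relatives shared more than the core. The 30 bases were identical at all 30 positions between Oas1a and Oas1g and between Ifit3 and Ifit3b, at 29 between Igtp and Irgm2, and at 25 between Oas1a and Oas1c. Ifitm3 and Ifitm2 matched at 19. Counting overlapping cores as 1 run, 28 runs were found, 23 of them before the annotated start and 5 after it. Of the 5 genes with more than 1 run, those shown above are given by the run nearest the start. The farthest began 188 bases before the start, in Ifit3b. Whole upstream windows of 250 bases are shown for a gene with 3 overlapping cores (Isg15), a gene with 2 separate ones, which read as TTTC, any 2 bases and TTTC on the gene's own strand (Ifit1), and a gene with none in the window that had one of the highest fold changes (Oasl2), each on the strand of the gene with its cores in capitals.
Isg15, chr4:156200819-156201068, minus strand: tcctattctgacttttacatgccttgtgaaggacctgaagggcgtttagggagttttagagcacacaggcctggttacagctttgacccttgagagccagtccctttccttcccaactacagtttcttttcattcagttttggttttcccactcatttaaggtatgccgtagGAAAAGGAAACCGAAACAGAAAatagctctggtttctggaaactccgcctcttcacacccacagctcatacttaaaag
Ifit1, chr19:34640639-34640888, plus strand: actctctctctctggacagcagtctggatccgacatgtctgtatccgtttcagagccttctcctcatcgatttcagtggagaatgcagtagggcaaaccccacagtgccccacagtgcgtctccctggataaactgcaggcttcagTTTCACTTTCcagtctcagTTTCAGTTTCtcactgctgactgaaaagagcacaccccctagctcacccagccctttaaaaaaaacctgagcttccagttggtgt
Oasl2, chr5:114896684-114896933, plus strand: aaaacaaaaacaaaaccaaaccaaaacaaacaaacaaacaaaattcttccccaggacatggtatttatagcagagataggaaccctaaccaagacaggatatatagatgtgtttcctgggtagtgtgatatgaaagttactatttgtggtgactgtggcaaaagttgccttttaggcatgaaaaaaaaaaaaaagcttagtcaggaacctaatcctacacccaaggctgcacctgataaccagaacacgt

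The tested members with a core (20 genes) had a median log2 fold change of 2.11, with a range of -0.11 to 4.95. Those without a core in the window (19 genes) had a median of 1.27, with a range of 0.41 to 6.02. The ranges overlapped almost throughout, and no test was made.

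Of the 50 genes, 46 passed the filter on low counts, which keeps a gene with about 10 counts, or 0.497 CPM, in at least 3 libraries. Of these 46, 44 were called higher in shUSP8 libraries by edgeR with a Benjamini-Hochberg adjusted p under 0.05 over all 12440 tested genes, 0 were called lower and 2 were not called. No member was lower at an unadjusted p under 0.05 either, and DESeq2 called 0 lower. Among all tested genes 17.8% were called higher and 14.9% lower, or 32.8% in either direction. The increases were large: 37 members were called higher by at least 2-fold, against 4.48% of tested genes, 25 by at least 4-fold, against 1.5%, and 14 by at least 8-fold, against 0.635%. The median log2 fold change was 2.06 over the tested members and -0.005 over all tested genes. In bulk RNA, more cells that express a gene and more RNA per cell cannot be told apart.

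The filter favours genes that are high in one group. Of the 46, 11 had fewer than 3 shCtrl libraries above it: Oas1b, Oasl2, Ifit1, Ifit3, Isg15, Mx2, Rsad2, Cmpk2, Gbp3, Rtp4 and Xaf1. All 3 shUSP8 libraries were above it in each. Isg15 had 2 shCtrl libraries above it, Cmpk2 had 1 and the rest had 0. With 0 above it, a gene had to differ to be tested. The other 35 were above it in all 3 shCtrl libraries. Of these, 33 were called higher, against 17.0% of the 11818 genes that met the same condition, with a median log2 fold change of 1.38. At least 2-fold were 26 of them, against 3.0% of those genes, at least 4-fold 14, against 0.745%, and at least 8-fold 4, against 0.22%, namely Oas3, Usp18, Parp14 and Phf11d. The other 10 members at 8-fold or more were among the 11. In CPM the shUSP8 and shCtrl libraries did not overlap for 49 of the 50 members, or 45 of the 46 tested, with Ifitm2 the exception. The same held, with shUSP8 higher, for 24.6% of tested genes.

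**Figure D1:**
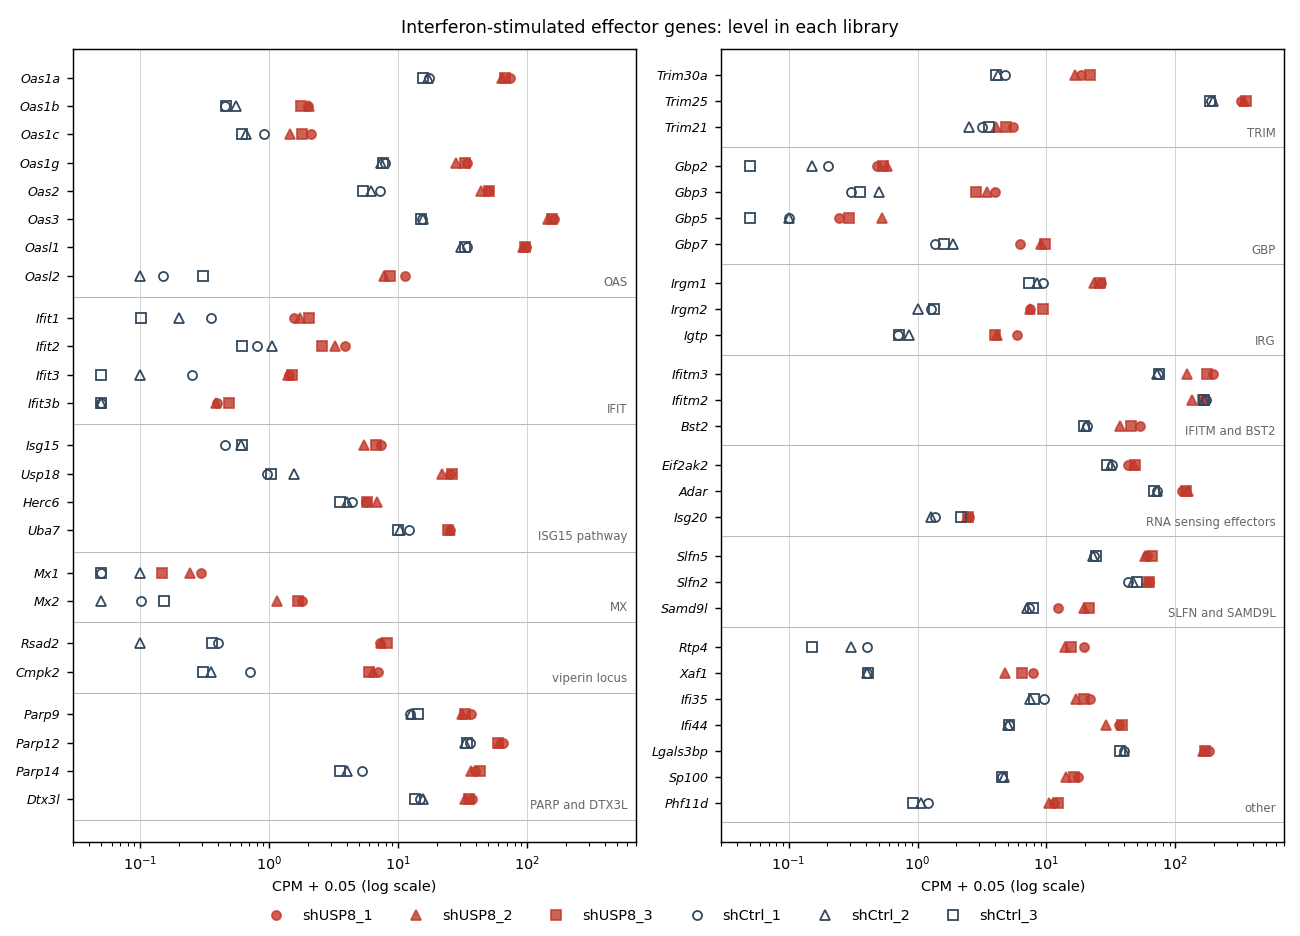
CPM of each of the 50 genes in each library, plus 0.05, on a log axis, grouped by subfamily, with filled points for shUSP8 libraries and open points for shCtrl libraries. The filled points lie to the right of the open points in every gene but Ifitm2, and Rtp4, Oasl2 and Rsad2 show the widest separation.

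The OAS enzymes make 2′-5′ oligoadenylates when they meet double-stranded RNA. All 8 members of the family were tested and called higher, 6 of them by at least 4-fold. Oas3, which prefers long double-stranded RNA, had 161, 144 and 155 CPM in shUSP8 libraries, against 15.3, 15.6 and 15.1 CPM in shCtrl libraries. The groups were far apart and each was tight, and the log2 fold change was 3.32 (SE 0.06, adjusted p = 5.64e-12). Oas2 had 49.5, 43.7 and 50.7 CPM in shUSP8 libraries and 7.24, 6.06 and 5.32 CPM in shCtrl libraries, a log2 fold change of 2.95 (SE 0.10, adjusted p = 1.18e-09). Oas1a, an active synthetase, had 73.1, 64.2 and 67.9 CPM in shUSP8 libraries and 17.2, 17.1 and 15.5 CPM in shCtrl libraries, a log2 fold change of 2.04. Oas1g, its neighbour on chromosome 5, rose alike, by a log2 fold change of 2.07. Expected counts of Oas1a and Oas1g were not whole in any library while their sum was whole within 0.011 in each, so fragments were divided between them and each gene's own value is uncertain. The summed pair had 2199, 1906 and 2063 counts in shUSP8 libraries, against 494, 482 and 446 in shCtrl libraries, a log2 fold change of 2.05 (SE 0.07).

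The remaining OAS genes included the smallest and the largest fold change of the family. Oas1c had 2.05, 1.40 and 1.76 CPM in shUSP8 libraries and 0.861, 0.606 and 0.568 CPM in shCtrl libraries, a log2 fold change of 1.35 (SE 0.27, adjusted p = 0.00256). Oas1b, known in the mouse as the flavivirus resistance gene, had 40, 41 and 35 counts in shUSP8 libraries and 8, 10 and 8 in shCtrl libraries, a log2 fold change of 2.07. The OAS-like protein Oasl1 is known in the mouse to restrain translation of Irf7. It had 98.9, 93.6 and 96.8 CPM in shUSP8 libraries and 33.9, 30.5 and 32.8 CPM in shCtrl libraries, a log2 fold change of 1.57 (SE 0.06). Oasl2 is its neighbour on chromosome 5. It had 229, 161 and 176 counts in shUSP8 libraries and was nearly silent in shCtrl libraries, with 2, 1 and 5 counts, a log2 fold change of 6.02 (SE 0.31, adjusted p = 5.22e-08). The value was 5.05 with effective-length offsets and 6.81 without shCtrl_3.

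The IFIT proteins bind RNA whose cap lacks the methylation of host transcripts, and their genes stand side by side on chromosome 19. They were low in both groups. Ifit2 had 78, 66 and 52 counts in shUSP8 libraries and 15, 20 and 11 in shCtrl libraries, a log2 fold change of 2.02 (SE 0.26, adjusted p = 7.81e-05). Ifit1 had 31, 35.0 and 41 counts in shUSP8 libraries and 6, 3 and 1 in shCtrl libraries, a log2 fold change of 3.31 (SE 0.40, adjusted p = 5.4e-05), or 4.01 without shCtrl_1. Ifit3 and its near copy Ifit3b shared fragments in the shUSP8 libraries. Their sum was 35, 35 and 39 counts in shUSP8 libraries and 4, 1 and 0 in shCtrl libraries, with a fitted log2 fold change of 4.28 (SE 0.49, adjusted p = 3.49e-05) that depends on few control counts. Ifit3 alone had 3.94, and 5.46 without shCtrl_1. Ifit3b on its own failed the filter, with 23 counts over the shUSP8 libraries and 0 over the shCtrl libraries. Set against the 3 counts that a count of 0 allows over the group, the 23 counts give a ratio of 7.32. This is no lower limit, since it leaves out the counting error of the 23 and their division from Ifit3.

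ISG15 is a ubiquitin-like modifier, Uba7 its activating enzyme, Herc6 its main ligase in the mouse, and Usp18 the protease that removes it and also dampens the interferon receptor. All 4 genes were called higher. Isg15 had 7.32, 5.36 and 6.64 CPM in shUSP8 libraries and 0.405, 0.556 and 0.568 CPM in shCtrl libraries, a log2 fold change of 3.64 (SE 0.21, adjusted p = 7.95e-08). Usp18 was higher too, with 25.3, 21.8 and 26.2 CPM in shUSP8 libraries against 0.911, 1.52 and 0.982 CPM in shCtrl libraries, a log2 fold change of 4.42 (SE 0.15, adjusted p = 7.36e-10). The enzymes that attach ISG15 had smaller fold changes than the modifier and its protease, a difference that was not tested. Uba7 had 25.3, 25.4 and 24.2 CPM in shUSP8 libraries and 12.1, 10.3 and 9.97 CPM in shCtrl libraries, a log2 fold change of 1.21. Herc6 had 5.56, 6.81 and 5.66 CPM in shUSP8 libraries and 4.30, 3.99 and 3.51 CPM in shCtrl libraries, a log2 fold change of 0.61 (SE 0.14, adjusted p = 0.0045), and 0.60 when summed with the overlapping Gm45193, with which it shared fragments. With effective-length offsets, which scale each count by the gene's effective length in that library, Herc6 had a log2 fold change of 1.24 (adjusted p = 0.0388), above that of Uba7 (1.01). Ube2l6, the conjugating enzyme between Uba7 and Herc6, is not among the 50 and was looked up after their values had been seen. It had 58.3, 48.3 and 54.1 CPM in shUSP8 libraries and 46.5, 44.0 and 43.9 CPM in shCtrl libraries, a log2 fold change of 0.26 (adjusted p = 0.0149, and 0.078 with effective-length offsets).

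The MX proteins are dynamin-like GTPases that trap viral components. Both genes were close to silent in shCtrl libraries. Mx2 had 36, 23 and 33 counts in shUSP8 libraries and 1, 0 and 2 in shCtrl libraries, a ratio of 29.3 with an exact 95% counting interval of 9.71 to 145. Its fitted log2 fold change was 4.71, and 5.57 without shCtrl_3. Mx1 failed the filter, with 5, 4 and 2 counts in shUSP8 libraries and 0, 1 and 0 in shCtrl libraries, a ratio of 10.5 with an interval of 1.53 to 452. These intervals cover counting error only, and no molecular identifiers are named in the sources used here. Viperin (Rsad2) makes a chain-terminating nucleotide from CTP, and Cmpk2, which stands beside it on chromosome 12, is a nucleotide kinase. Rsad2 had 148, 151 and 166 counts in shUSP8 libraries and 7, 1 and 6 in shCtrl libraries, a log2 fold change of 4.95 (SE 0.28, adjusted p = 7.16e-08). Cmpk2 had 143, 131 and 121 counts in shUSP8 libraries and 13, 6 and 5 in shCtrl libraries, a log2 fold change of 3.95 (SE 0.25, adjusted p = 1.52e-07). In both neighbours every shUSP8 library was far above every shCtrl library.

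**Figure D2:**
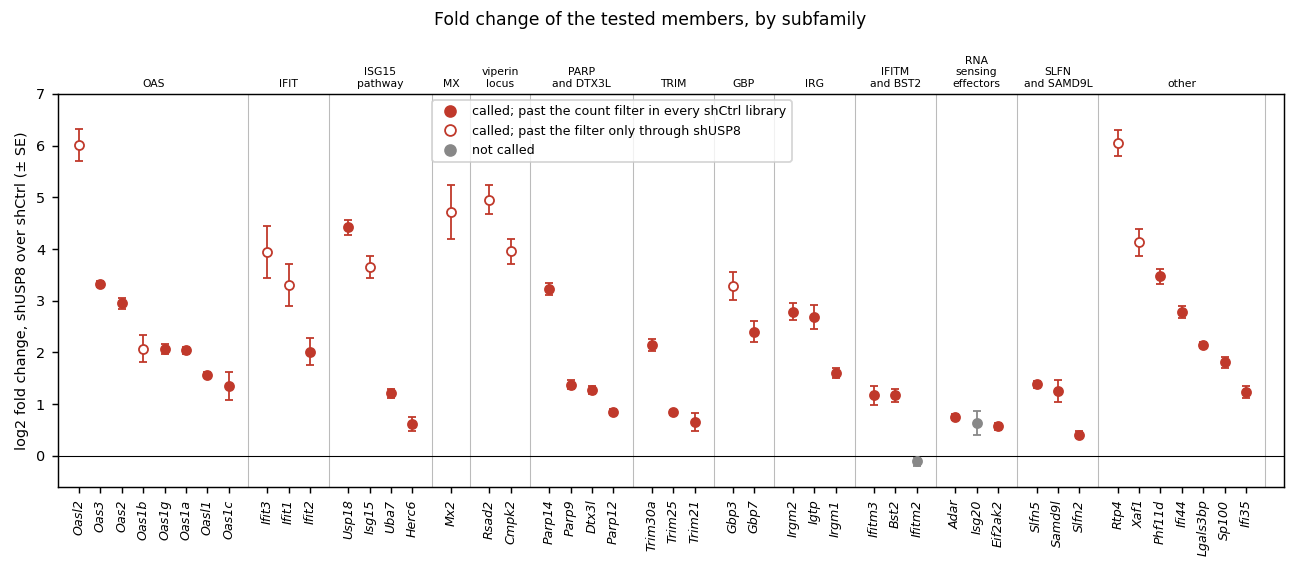
Fitted log2 fold change, shUSP8 over shCtrl, of the 46 tested members with bars of 1 SE, grouped by subfamily. Filled points passed the count filter in all 3 shCtrl libraries, open points in fewer than 3 of them, and grey points were not called. The 11 open points include Rtp4 at 6.05 and Oasl2 at 6.02, and Ifitm2 at -0.11 is the only point below 0.

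The PARP members belong to a family known for attaching ADP-ribose, and Dtx3l is the ubiquitin ligase that pairs with Parp9. All 4 were called higher. Parp14, a macrodomain protein, had 39.1, 36.8 and 43.2 CPM in shUSP8 libraries and 5.21, 3.99 and 3.51 CPM in shCtrl libraries, a log2 fold change of 3.22 (SE 0.12, adjusted p = 5.3e-09). It stood above the other three, of which Parp12 had 65.0, 60.5 and 59.9 CPM in shUSP8 libraries and 35.7, 32.7 and 34.1 CPM in shCtrl libraries, a log2 fold change of 0.85. Parp9 and Dtx3l lie on opposite strands of chromosome 16 with overlapping starts, and shared fragments in all libraries. Their fold changes, 1.38 and 1.27 on the log2 scale, were uncertain apart, and the sum had 1513, 1338 and 1409 counts in shUSP8 libraries and 535, 557 and 534 in shCtrl libraries, a log2 fold change of 1.32 (SE 0.06).

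The TRIM members are ubiquitin ligases. Trim25, which acts on the RNA sensor RIG-I, had 323, 343 and 355 CPM in shUSP8 libraries and 189, 196 and 186 CPM in shCtrl libraries, a log2 fold change of 0.84 (SE 0.05, adjusted p = 1.47e-07). Trim30a, a mouse brake on NF-κB signalling, had 18.6, 16.7 and 21.7 CPM in shUSP8 libraries and 4.71, 4.19 and 3.98 CPM in shCtrl libraries, a log2 fold change of 2.14 (SE 0.12). Trim21, a cytosolic antibody receptor, had 5.47, 4.01 and 4.79 CPM in shUSP8 libraries and 3.09, 2.48 and 3.51 CPM in shCtrl libraries, a log2 fold change of 0.65 (SE 0.17, adjusted p = 0.012). The call of Trim21 was the least firm of the 44: the adjusted p was 0.061 without shCtrl_2, 0.0559 with DESeq2 and 0.881 with effective-length offsets, where its log2 fold change was 0.08.

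Guanylate-binding proteins and some of the immunity-related GTPases coat and disrupt the vacuoles of intracellular microbes. Gbp7 had 126, 188 and 197 counts in shUSP8 libraries and 26, 36.3 and 30 in shCtrl libraries, a log2 fold change of 2.40 (SE 0.20, adjusted p = 3.49e-06). It shared fragments with the overlapping Gm43802 in part of the libraries, and their sum had a log2 fold change of 2.39. Gbp3 had 80, 71 and 57 counts in shUSP8 libraries and 5, 9 and 6 in shCtrl libraries, a log2 fold change of 3.29 (SE 0.27, adjusted p = 2.04e-06). The other two GBP members failed the filter. Gbp2 had 9, 11 and 10 counts in shUSP8 libraries and 3, 2 and 0 in shCtrl libraries, and Gbp5 had 4, 10 and 5 in shUSP8 libraries and 1, 1 and 0 in shCtrl libraries, a ratio of 9.07 for Gbp5 with an exact 95% counting interval of 2.19 to 80.3. The groups did not overlap in either gene. With no filter on low counts edgeR gave adjusted p values of 0.00234 for Gbp2, 0.00923 for Gbp5, 2.37e-05 for Ifit3b and 0.0732 for Mx1. DESeq2 gave 0.0654 for Gbp2 and 0.00491 for Ifit3b, and no adjusted p for Gbp5 and Mx1.

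All 3 IRG members were called higher. Irgm1, which guards host membranes against the other IRG proteins, had 26.4, 23.3 and 25.98 CPM in shUSP8 libraries and 9.32, 8.39 and 7.29 CPM in shCtrl libraries, a log2 fold change of 1.60 (SE 0.10, adjusted p = 1.16e-07). Irgm2 and Igtp overlap on the same strand of chromosome 11 and shared fragments in part of the libraries. Fitted alone they had log2 fold changes of 2.79 and 2.68. Together they had 271, 236 and 272 counts in shUSP8 libraries and 37, 35 and 38 in shCtrl libraries, a log2 fold change of 2.75 (SE 0.12).

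The membrane factors were the most abundant members per transcript length, and they include a pair of close paralogs. Ifitm3 blocks fusion of viruses in endosomes. It had 195, 124 and 176 CPM in shUSP8 libraries and 73.2, 72.2 and 74.2 CPM in shCtrl libraries, a log2 fold change of 1.17 (SE 0.18, adjusted p = 0.00794). Ifitm2, a paralog that stands near it on chromosome 7, had 170, 135 and 164 CPM in shUSP8 libraries and 171, 168 and 166 CPM in shCtrl libraries. Its groups overlapped, and its log2 fold change of -0.11 (SE 0.08) was not called (adjusted p = 0.327). On log2(TPM + 1) the sign of Ifitm2 turned, to 0.08 (limma adjusted p = 0.398). The ratio of Ifitm3 to Ifitm2 in CPM was 1.15, 0.92 and 1.07 in shUSP8 libraries, against 0.43, 0.43 and 0.45 in shCtrl libraries. The difference was 1.26 on the log2 scale, with a two-sided exact permutation p of 0.1, the smallest that 3 against 3 can give, for a ratio chosen after the values had been seen. Bst2 (tetherin), which holds budding virions on the cell, had 53.1, 37.2 and 45.4 CPM in shUSP8 libraries and 20.6, 20.3 and 19.4 CPM in shCtrl libraries, a log2 fold change of 1.17 (SE 0.12, adjusted p = 0.000116).

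**Figure D3:**
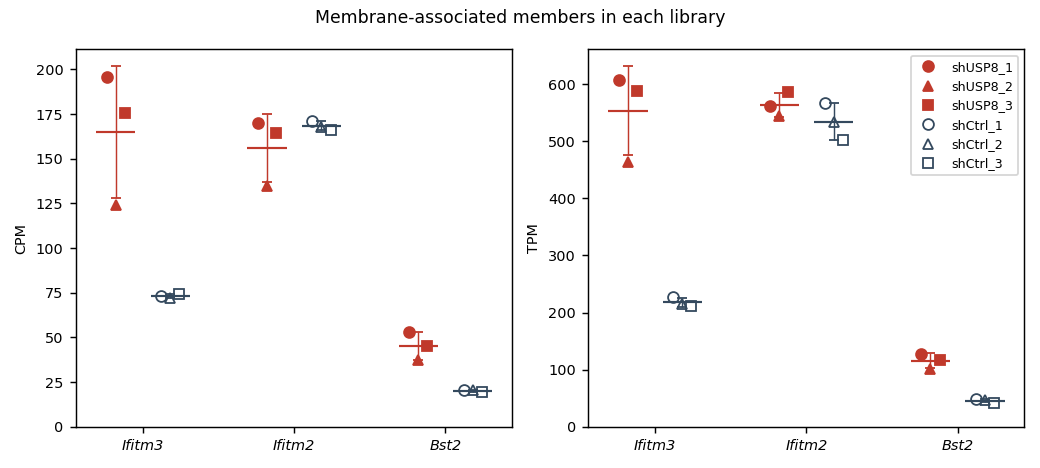
Ifitm3, Ifitm2 and Bst2 in each library, in CPM and in TPM, with shUSP8 libraries left of shCtrl libraries; points are libraries, lines the mean and bars the SD (n = 3 each). Ifitm3 and Bst2 separate by group in both units, Ifitm2 overlaps in both, and shUSP8_2 is the lowest shUSP8 library in all 3 genes.

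Eif2ak2, Adar and Isg20, which also act on viral or double-stranded RNA, had log2 fold changes below 1. Eif2ak2 (PKR), the kinase that halts translation, had 42.9, 47.3 and 48.8 CPM in shUSP8 libraries and 32.1, 31.5 and 29.7 CPM in shCtrl libraries, a log2 fold change of 0.57 (SE 0.07, adjusted p = 4.25e-05). Adar, which edits adenosine in double-stranded RNA, had 113, 125 and 121 CPM in shUSP8 libraries and 72.3, 72.1 and 67.9 CPM in shCtrl libraries, a log2 fold change of 0.75 (SE 0.06, adjusted p = 5.85e-07). Adar shared fragments with Chrnb2, which overlaps it on the opposite strand, and their sum had a log2 fold change of 0.67. The exonuclease Isg20 had 2.44, 2.36 and 2.39 CPM in shUSP8 libraries and 1.32, 1.21 and 2.12 CPM in shCtrl libraries. Its groups did not overlap, but the log2 fold change of 0.63 (SE 0.23) was not called (adjusted p = 0.0541). Without shCtrl_3, the highest control, the value was 0.92 with an adjusted p of 0.0134.

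Schlafen proteins and Samd9l restrain translation or cell growth. Slfn5 had 60.0, 57.6 and 65.3 CPM in shUSP8 libraries and 23.2, 22.9 and 24.1 CPM in shCtrl libraries, a log2 fold change of 1.38 (SE 0.07, adjusted p = 1.23e-08). Slfn2 had the smallest called change of all members, with 62.8, 59.9 and 62.9 CPM in shUSP8 libraries against 42.5, 46.7 and 50.7 CPM in shCtrl libraries, a log2 fold change of 0.41 (SE 0.07, adjusted p = 0.000557). Samd9l had 12.2, 19.4 and 21.1 CPM in shUSP8 libraries and 7.24, 7.02 and 7.85 CPM in shCtrl libraries, a log2 fold change of 1.25 (SE 0.21, adjusted p = 0.00499). Its shUSP8 libraries spread more widely than those of the other two genes, and shUSP8_1 was the lowest of them.

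The 7 remaining effectors were all called higher. Rtp4, a receptor chaperone induced by interferon, had 396, 286 and 314 counts in shUSP8 libraries and 7, 5 and 2 in shCtrl libraries, a log2 fold change of 6.05 (SE 0.25, adjusted p = 2e-08). Among the 46 fitted members it and Oasl2 had the highest values, within 1 SE of each other, although with effective-length offsets Rtp4 stayed at 6.04. It overlaps Masp1 on the opposite strand and Gm45338 on its own. Xaf1, an antagonist of the apoptosis inhibitor XIAP, had 161, 98 and 132 counts in shUSP8 libraries and 7 in every shCtrl library, a log2 fold change of 4.13 (SE 0.26). Both were barely detected in the control libraries. Phf11d had 11.5, 10.3 and 12.3 CPM in shUSP8 libraries and 1.16, 1.01 and 0.878 CPM in shCtrl libraries, a log2 fold change of 3.47. Ifi44 had 36.7, 29.1 and 38.2 CPM in shUSP8 libraries and 5.06, 4.95 and 5.06 CPM in shCtrl libraries, a log2 fold change of 2.78. Lgals3bp, a secreted glycoprotein that binds galectins, was abundant in both groups, with 184, 164 and 169 CPM in shUSP8 libraries and 39.5, 39.6 and 37.4 CPM in shCtrl libraries, a log2 fold change of 2.15 (SE 0.06, adjusted p = 1.15e-10). Sp100, a component of nuclear bodies, had a log2 fold change of 1.81, and Ifi35, a partner of Nmi, one of 1.23.

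Levels can be compared between genes only per transcript length, in TPM. Summed over the 50 genes, TPM was 1869.8 to 2143.9 in shUSP8 libraries and 996.4 to 1106.8 in shCtrl libraries. Ifitm2 and Ifitm3 made up 53.9% to 55.4% of that sum in shUSP8 libraries, against 71.6% to 71.7% in shCtrl libraries. Without that pair the sum was 861.9 to 969.4 TPM in shUSP8 libraries and 282.9 to 313.1 TPM in shCtrl libraries. At a mean of 1 TPM or more there were 44 members in shUSP8 libraries and 29 in shCtrl libraries, and at 10 TPM or more 26 and 11. In the mean of shUSP8 libraries Ifitm2 (564 ± 21.2 TPM) and Ifitm3 (553 ± 77.8) led, within their spread of each other, followed by Bst2 (115 ± 12.9) and Lgals3bp (105 ± 5.81), again within their spread (SD, n = 3 each). In shCtrl libraries Ifitm2 (534 ± 32.0 TPM) stood apart from Ifitm3 (218 ± 8.33). Members low in shCtrl libraries tended to have higher fold changes, with a Spearman rho of -0.49 between shCtrl CPM and log2 fold change over the 35 members above the filter there. The points share the same libraries, and the fold change contains the shCtrl value itself, so the number describes these genes only.

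The members' levels differed among the shUSP8 libraries. In CPM shUSP8_2 was the lowest of the 3 for 31 of 46 tested members (67.4%), and for 36.7% of all tested genes. In TPM the shares were 69.6% and 37.4%. The highest library depended on the unit. In CPM it was shUSP8_1 for 26 members (56.5%), and for 36.6% of all tested genes, whereas in TPM it was shUSP8_3 for 26 members (56.5%), and for 48.5% of all tested genes. The mean fragment length, estimated from single-transcript genes, was 368 nucleotides in shUSP8_2, against 292 to 309 in the other 5 libraries. Across the 46 members, effective length and the deviation of shUSP8_2 from the other shUSP8 libraries had a Spearman rho of 0.5 in CPM and 0.3 in TPM. Without shUSP8_2, Ifitm3 had a log2 fold change of 1.34 (adjusted p = 2.02e-09). The part of fragment length in the order of these libraries was not tested.

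The other genes of the interferon pathway were followed from a list of 61, of which 39 were tested. Of these, 22 were called higher and 2 lower, with a median log2 fold change of 0.23. Among all tested genes 17.8% were called higher and 14.9% lower, with a median of -0.005. The counts by role that follow stand beside the same shares. Transcripts of the ligands were practically absent: of 21 interferon genes 17 had no count in any library, and the remaining ones summed to 1, 2 and 0 counts in shUSP8 libraries and 1, 1 and 2 in shCtrl libraries. At this depth no difference in interferon transcripts was detectable. Of 5 tested receptor chains 1 was called: Ifnar2 had 60.5, 57.2 and 60.5 CPM in shUSP8 libraries and 50.7, 47.8 and 50.0 CPM in shCtrl libraries, a log2 fold change of 0.26.

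Of 5 kinases and STATs, 3 were called higher. Stat2 had 30.3, 28.3 and 29.7 CPM in shUSP8 libraries and 18.8, 20.3 and 19.1 CPM in shCtrl libraries, a log2 fold change of 0.60 (SE 0.07). Of 7 IRF factors, 6 were called higher. Irf7, the factor that amplifies interferon output, had 91.5, 78.3 and 82.9 CPM in shUSP8 libraries and 3.24, 3.74 and 3.72 CPM in shCtrl libraries, a log2 fold change of 4.56 (SE 0.09). Irf9, the DNA-binding part of the complex that recognises the ISRE, had 39.3, 37.1 and 40.6 CPM in shUSP8 libraries and 10.5, 11.0 and 10.1 CPM in shCtrl libraries, a log2 fold change of 1.89 (SE 0.07). Both transcription factor genes separated cleanly by group.

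Negative regulators did not share a direction: of 6, Socs1, which blocks the receptor kinases, was called higher with a log2 fold change of 1.74 (SE 0.27), and Ptpn6, the phosphatase SHP-1, was called lower at -0.21 (SE 0.06). The call of Ptpn6 was lost without shUSP8_3, shCtrl_1 or shCtrl_2, with adjusted p of 0.0915, 0.0739 and 0.0793. It was also lost when counts were scaled by library totals (-0.13, adjusted p = 0.118) and on log2(TPM + 1) (-0.08, limma adjusted p = 0.436). Of 15 sensors and adaptors, 11 were called higher. Ddx58 (RIG-I) had 41.6, 37.7 and 43.9 CPM in shUSP8 libraries and 5.77, 5.51 and 5.58 CPM in shCtrl libraries, a log2 fold change of 2.87 (SE 0.08), and Dhx58 (LGP2) one of 2.99 (SE 0.11).

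The relatives are genes of the same families. Of 55 that are not among the 50, 28 were tested, 14 were called higher, 1 lower and 13 not called, with a median log2 fold change of 0.27. Over all tested genes the shares were 17.8% higher and 14.9% lower. Of the 28, 5 had fewer than 3 shCtrl libraries above the filter. Among the 23 above it in all shCtrl libraries 10 were called higher, with a median of 0.16. Of all genes that met this condition 17.0% were called higher, with a median of -0.011. For the members it was 33 of 35, with a median of 1.38. The difference between relatives and members was not tested. Among PARP relatives Parp10 was higher by a log2 fold change of 0.90 (SE 0.09), and Parp2, a DNA-repair enzyme, was lower at -0.26 (SE 0.06), though with an adjusted p of 0.0536 by DESeq2. Trim34a rose by 2.36 and Trim12c by 0.73 among TRIM relatives, both on the log2 scale. Slfn8 had a log2 fold change of 1.24 and Slfn4 one of 1.05. The IRG relative Ifi47 had 1.85, 1.496 and 1.86 CPM in shUSP8 libraries and 0.203, 0.404 and 0.310 CPM in shCtrl libraries, a log2 fold change of 2.48. Ifi44l, a paralog of Ifi44, had a log2 fold change of 4.93 (SE 0.45), or 5.60 without shCtrl_2, and Phf11b, a paralog of Phf11d, one of 2.68 (SE 0.44), both from few control counts. All 7 GBP, 4 OAS and 2 IFIT relatives failed the count filter, as did 4 of 6 IRG relatives.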

How the data were processed

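Per the labels, total RNA was read as paired ends on the DNBSEQ platform. The deposited expected counts are estimated fragments per gene, and 7.16% of them are not whole, and the TPM values, as deposited, are relative abundances per effective length. RSEM and DESeq2 1.28.1 are named in the submitters' processing notes, as is the build mm10, without their roles. For the aligner, the annotation and the use of strand, the entry is not given in the sources used here. The columns named KO were taken as shUSP8, the only other genotype label, and those named WT as shCtrl. Symbols were linked to GENCODE M21 (GRCm38) through transcript identifiers, 141374 of 142604 of them found.

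Rounded counts went into edgeR 4.0.16 under R 4.3.3, normalised by TMM and filtered by filterByExpr at a minimum count of 10, for the robust quasi-likelihood test of shUSP8 (n = 3) against shCtrl (n = 3), adjusted by Benjamini-Hochberg over 12440 genes. Adjusted p values without another tool named come from this fit. CPM uses the rounded counts and TMM library sizes. SE was taken as the size of the log2 fold change over the root of the F statistic, and so is no standard error of the coefficient itself. Alternatives used DESeq2 1.42.0 and limma 3.58.1, and plots and motif searches Python 3.11.15. Summing gene pairs that share fragments was chosen after seeing the data.

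The 50 members and the other lists were chosen with earlier results of these data known. Every member may be named; of the pathway list the 2 called genes of smallest p in each role, and of the relatives the 2 called genes of largest change in each family. Some genes that this rule selects are not reported here.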

Additional observations from a re-analysis of the deposited data

How the results depend on the processing

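The comparison was recomputed under 18 alternatives, 6 of them leaving out a library. No member was called lower in any. Members called higher numbered 39 of 42 tested with effective-length offsets, 40 of 42 with a filter of 1 TPM in 3 libraries, 41 of 43 with sharing pairs summed (a choice made after seeing the data) and 48 of 50 without a filter, and 44 to 46 in the others. Of the 44 members, 43 stayed called under every alternative that tested them. The exception was Trim21, also lost on log2(TPM + 1) (adjusted p = 0.663), log2(TPM + 0.1) (0.669) and log2(TPM + 1) with the TPM filter (0.668). Isg20 was called with library totals (0.0292), no filter (0.0472), limma-voom (0.038) and the 3 TPM scales (0.0404, 0.0437 and 0.0441). Ifitm2 turned to 0.08 on all 3 TPM scales (adjusted p = 0.398, 0.396 and 0.393). The median of the tested members was 1.32 on log2(TPM + 1), a scale that understates the change of low genes, 1.44 with the TPM filter and 1.74 with offsets, where the same 42 members had 1.91 without them. Genes called over the whole table split into 2218 higher and 1859 lower, against 3111 and 1172 with library totals and 2379 and 500 on log2(TPM + 1), which move the median of all genes by 0.07 and 0.11. Genes called lower also numbered 492 on log2(TPM + 0.1), 470 with the TPM filter, 1217 with offsets and 1239 to 2077 without each library in turn. All calls numbered 2706 with the TPM filter and 2710 with offsets. Pathway genes called lower numbered 0 with library totals and the TPM scales, 1 with DESeq2, offsets and the block, and 0 to 2 without each library, and relatives called lower 0 with DESeq2 and the TPM scales. Slfn8 missed the threshold with the TPM filter (0.0552). A replicate block called 2021 genes higher and 1690 lower and the same number of members, 44. Libraries of equal number did not deviate together (correlations -0.007, 0.078 and -0.054), and the labels do not call them pairs. The causes of these shifts were not tested. Depth limits Ifit3b, Mx1, Gbp2, Gbp5 and the 11 members with fewer than 3 shCtrl libraries above the filter. The fold changes of those 11 rest on few shCtrl counts.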
